A study of Caenorhabditis elegans with 18 samples.

Results

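The oocyte RNA-binding regulators described here are 10 genes, *oma-1*, *oma-2*, *lin-41*, *puf-3*, *puf-11*, *puf-5*, *puf-7*, *gld-1*, *mex-3* and *nos-2*, of the 17118 genes that have a probe set of their own on the array. They were chosen by name, with earlier results of these data known. Their values are those of the probe sets that carry only the symbol of 1 of them in the platform's annotation. There are 14 such probe sets among 22625, all 10 genes have at least 1, and *oma-2*, *lin-41*, *gld-1* and *mex-3* have 2. Where there were 2, the one with the higher mean over all arrays stood for the gene. For 8 of the 10 genes the probe set carries a suffix letter (7 of the _s type and 1, that of *puf-7*, of the _x type), which marks probes that can bind more than 1 transcript.

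Whole *C. elegans* of the wild-type strain N2 were grown from synchronized embryos on *E. coli* OP50, the control diet, or on *Lactobacillus rhamnosus* CNCM I-3690 or CNCM I-4317, for 3 days (young worms) or 10 days. RNA of each of the 6 groups was hybridized to 3 Affymetrix arrays, 18 in all. Every worm was wild type, and diet and feeding time were the only differences the labels give. The Methods call the arrays biological replicates without describing the cultures, so the p-values measure the spread between these arrays, which may in part be technical. Each value is a log2 expression value, so that a difference of 1 is a doubling, and the number of arrays limits the precision. Values were compared between groups for 1 probe set at a time and never between probe sets.

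In the hermaphrodite gonad, oocytes form with almost no transcription during their last stages and hold a store of maternal mRNAs whose translation is switched on and off by RNA-binding proteins. GLD-1 acts early, while germ cells pass through meiotic prophase, and the PUF proteins, LIN-41 and the paired OMA proteins act in growing oocytes, where LIN-41 holds back maturation and the OMA proteins promote it. MEX-3 and NOS-2 lie at the passage to the embryo, MEX-3 as a repressor of mRNAs inherited by the zygote and NOS-2 as a Nanos protein made in the founder of the germ line from an mRNA that is kept silent in the oocyte. The array reads the amount of these mRNAs in the whole worm and not their translation. A lower value in a whole worm can come, among other sources, from fewer oocytes or from less mRNA in each of them, and these cannot be told apart.

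The deposited values ran from -0.064 to 11.96, with array medians of 1.27 to 1.40, and the correlation between arrays of 1 group, over all probe sets, was 0.981 to 0.996. The mean of each of the 10 genes over the 18 arrays was above 5. Of all variance between arrays, 59.5% lay on a first component. Replicate 1 of OP50 at 10 days stood apart in its markers of body tissues, with mean log2 values of 5.91 over the muscle genes (4.46 and 4.37 on the other arrays of its group), 4.36 over the hypodermis and cuticle genes (2.86 and 2.52) and 3.40 over the neuron genes (2.90 and 2.84). Its mean over the 10 regulators, 7.69, was also the lowest of its group (7.80 and 7.86). As means over their lists, markers of the germ line were measurable in all 6 groups. The mean log2 value of 21 germ granule and germ cell markers was between 6.11 and 6.73 on every array. That of 12 eggshell and oocyte surface markers was between 7.98 and 8.90. Of these genes 0 stayed below the array median on all 18 arrays, which does not show that each was measurable in each group. Markers of transcription by the embryo itself were near the floor, with a mean over 15 genes of 1.17 to 1.70 and 6 of the 15 below the array median on all 18 arrays.

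The levels of all 10 genes were lowest in young worms fed with CNCM I-3690. The highest group was the 10-day worms on CNCM I-4317 for 6 genes (*oma-1*, *oma-2*, *puf-3*, *puf-5*, *puf-7* and *puf-11*), the 10-day worms on OP50 for *lin-41*, *gld-1* and *mex-3*, and the 10-day worms on CNCM I-3690 for *nos-2*. The second probe sets of *mex-3* and *oma-2* gave other highest groups. These were CNCM I-4317 at 10 days for *mex-3* (mean 8.16) and CNCM I-3690 at 10 days for *oma-2* (mean 6.79). The distance between the highest and the lowest group mean was widest for *lin-41*, at 1.096 (2.14-fold), followed by *puf-7* at 0.99 (1.99-fold), and narrowest for *gld-1*, at 0.25 (1.19-fold). These distances are differences between group means of the probe set that stood for each gene, and the order is a description. Neighbours in the order mostly overlapped. In *oma-1*, *oma-2*, *puf-3*, *puf-11*, *nos-2*, *gld-1* and *mex-3* the arrays of all 5 pairs of neighbouring groups overlapped, and the separated neighbours were 1 pair in *lin-41* (CNCM I-4317 at 10 days above OP50 at 3 days), 1 in *puf-5* (CNCM I-4317 above CNCM I-3690 at 10 days) and 2 in *puf-7* (OP50 at 10 days above OP50 at 3 days, and OP50 above CNCM I-4317 at 3 days).

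**Figure D1:**
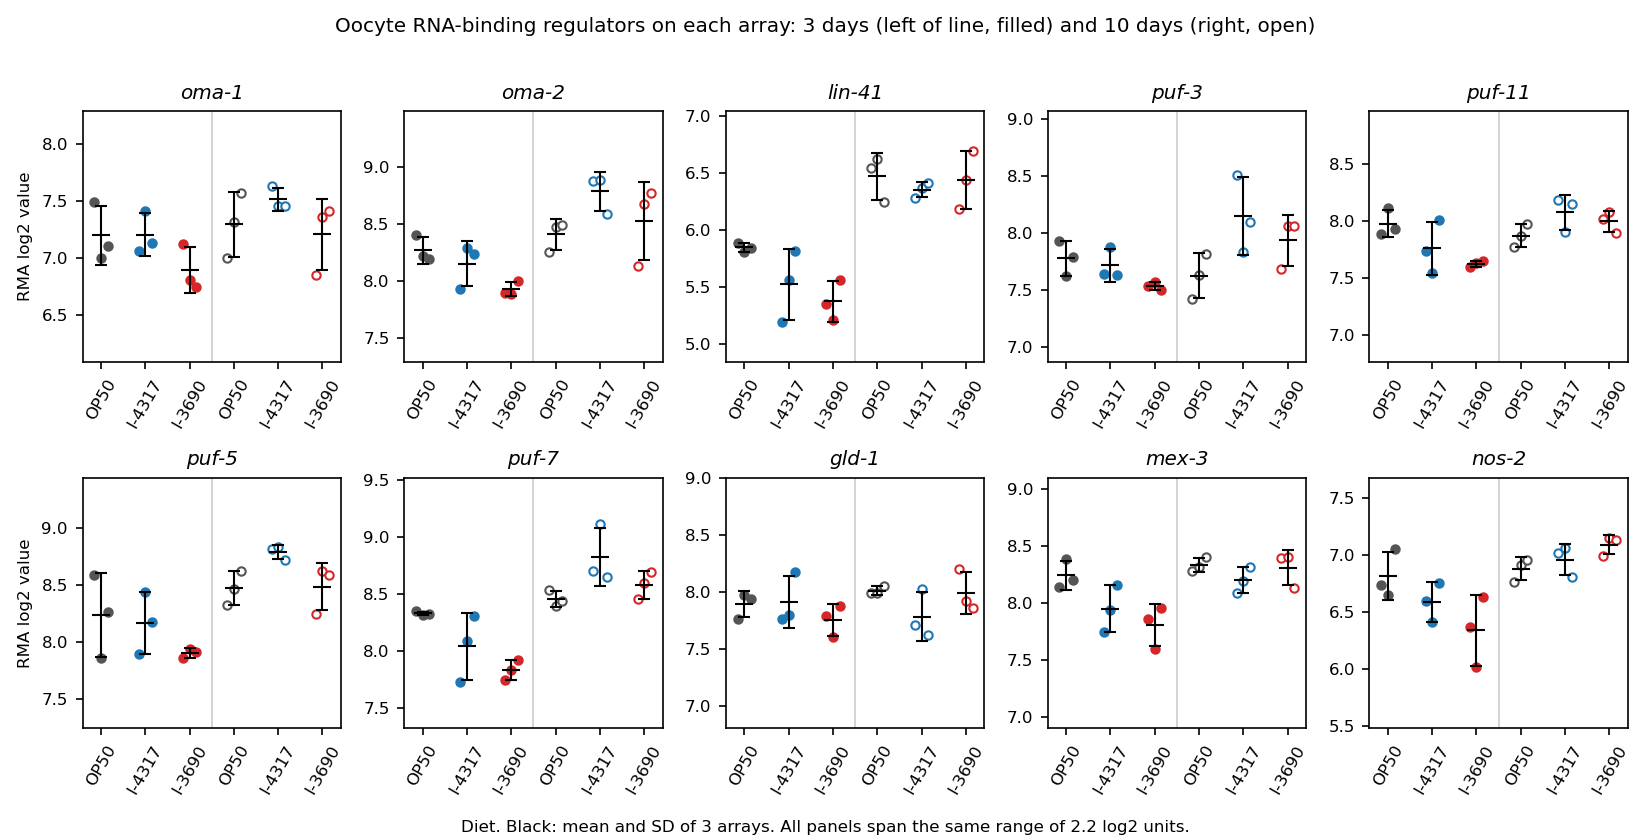
Log2 expression value of the 10 genes on each array, by diet, with young worms (3 days, filled) left of the line and worms of 10 days (open) right of it; black bars are the mean and SD of 3 arrays, and all panels span the same range of log2 units. In every panel the filled red points (CNCM I-3690, 3 days) have the lowest group mean, and in *lin-41* all arrays of 10 days lie above all arrays of 3 days.

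The first comparison asked how the regulators of young worms differed between diets. On CNCM I-3690 against OP50, *puf-7*, *mex-3* and *nos-2* were lower, by 1.36-fold to 1.41-fold, and the other 7 genes did not pass the test. The test was limma's, and a gene counts as called where its p, after Benjamini-Hochberg adjustment across the whole array, was under 0.10. Of all probe sets, 2.27% were called lower in this comparison. Among the 4288 probe sets with a mean log2 value above 5, a level that all 10 genes exceed and that was chosen after seeing the data, 5.88% were called lower. The log2 differences of all 10 genes were below 0, from -0.50 to -0.14 with a median of -0.35, where the median was -0.05 over all probe sets and -0.14 over those above 5. After cyclic loess between arrays the median of the 10 was -0.19, 1 of the differences (*gld-1*) was above 0, and the median of all probe sets was 0.0065. In 7 of the 10 all 3 arrays on CNCM I-3690 lay below all 3 on OP50, against 13.1% of all probe sets. That share was not computed for the probe sets above 5.

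*puf-7*, a PUF protein that represses maternal mRNAs in growing oocytes, was at 8.35, 8.32 and 8.33 in young worms on OP50 and at 7.75, 7.84 and 7.92 on CNCM I-3690. Its 3 values on OP50 were nearly equal and all above those on CNCM I-3690. The log2 difference was -0.50 (95% interval -0.79 to -0.20, limma adjusted p = 0.0637, n = 3 arrays each). Probe sets that *puf-7* shares with its close relatives gave -0.31 (with *puf-6*; adjusted p = 0.379) and -0.23 (with *puf-6* and *puf-10*; adjusted p = 0.446) in the same limma fit.

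*mex-3*, whose KH domain protein represses *pal-1* mRNA in oocytes and early embryos, was at 8.14, 8.39 and 8.20 on OP50 and at 7.86, 7.60 and 7.95 on CNCM I-3690 in young worms. The groups did not overlap, and the log2 difference was -0.44 (95% interval -0.70 to -0.17, limma adjusted p = 0.0682). Its second probe set gave a like value, -0.47, with groups that overlapped (95% interval -0.89 to -0.05, limma adjusted p = 0.213).

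*nos-2*, the Nanos gene, was at 6.74, 6.66 and 7.05 on OP50 and at 6.38, 6.02 and 6.64 on CNCM I-3690. The highest array on CNCM I-3690 was only just under the lowest on OP50. The log2 difference was -0.47 (95% interval -0.78 to -0.16, limma adjusted p = 0.0930), and a probe set that *nos-2* shares with *T02G5.11* was also called, at -0.57 (limma adjusted p = 0.0798).

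Of the genes that did not pass, *lin-41* and *puf-11* came closest. *lin-41*, which encodes a protein of the TRIM-NHL family, was at 5.88, 5.81 and 5.84 on OP50 and at 5.35, 5.21 and 5.56 on CNCM I-3690, without overlap (log2 difference -0.47, limma adjusted p = 0.114). *puf-11* was at 7.89, 8.11 and 7.93 on OP50 and at 7.59, 7.63 and 7.64 on CNCM I-3690, also without overlap (-0.35, limma adjusted p = 0.116). The remaining differences were -0.34 for *oma-2*, -0.33 for *puf-5*, -0.31 for *oma-1*, -0.25 for *puf-3* and -0.14 for *gld-1*, with limma adjusted p from 0.238 to 0.662. Of these, *oma-2* and *puf-3* had arrays that did not overlap and *puf-5*, *oma-1* and *gld-1* had arrays that did.

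The 3 calls lie close to the threshold. At an adjusted p under 0.05 in limma none of the 10 genes passed, where 6 had an unadjusted p under 0.05, or in a fit to the 9 arrays of young worms or after cyclic loess between arrays. Over all 22625 probe sets, 4171 had an unadjusted limma p under 0.05 in this comparison. Leaving out 1 array of the 18 gave between 0 and 5 calls: 1 without replicate 1 of OP50, 0 without replicate 2 or 3 of OP50, 0 without replicate 1 or 2 on CNCM I-3690, and 5 when replicate 3 on CNCM I-4317 was left out, all at 3 days. Over the 26 alternative fits at the same threshold, *mex-3* was called in 20, *puf-7* in 19 and *nos-2* in 13, with limma adjusted p up to 0.317, 0.271 and 0.405. Some of the fits that ended the call of *nos-2* left out an array of 10 days, which does not enter the difference itself.

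Young worms fed with CNCM I-4317 gave no call. The differences from OP50 ran from -0.32 to 0.02 with a median of -0.17 and 8 of 10 below 0 (limma, 0 called, 1 with an unadjusted p under 0.05, adjusted p from 0.467, and 0.115% of all probe sets called in either direction). The lowest were *lin-41* at -0.32 (95% interval -0.66 to 0.01), *mex-3* at -0.29 (95% interval -0.56 to -0.03) and *puf-7* at -0.29 (95% interval -0.58 to 0.01). In *puf-7* and *lin-41* the 3 arrays on CNCM I-4317 were spread more widely than those of the other diets. *puf-7* was at 7.73, 8.09 and 8.31, and *lin-41* at 5.19, 5.56 and 5.81. In both genes replicate 1 was near the level on CNCM I-3690 and replicate 3 near the level on OP50. Of all 22625 probe sets, 2217 had an unadjusted limma p under 0.05 on CNCM I-4317 against OP50 in young worms.

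Between the strains in young worms, all 10 genes were lower on CNCM I-3690 than on CNCM I-4317, by log2 differences of -0.31 to -0.14, and none was called (limma, 0 with an unadjusted p under 0.05, adjusted p from 0.642, and 0.119% of all probe sets called). The 95% intervals reached from -0.69 to 0.18. The 3 comparisons of young worms share groups of arrays, and the lower values on CNCM I-3690 enter the first and the last of them. The values of CNCM I-4317 lay between those of OP50 and CNCM I-3690 in 8 of 10 genes, and slightly above OP50 in *oma-1* and *gld-1*.

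**Figure D2:**
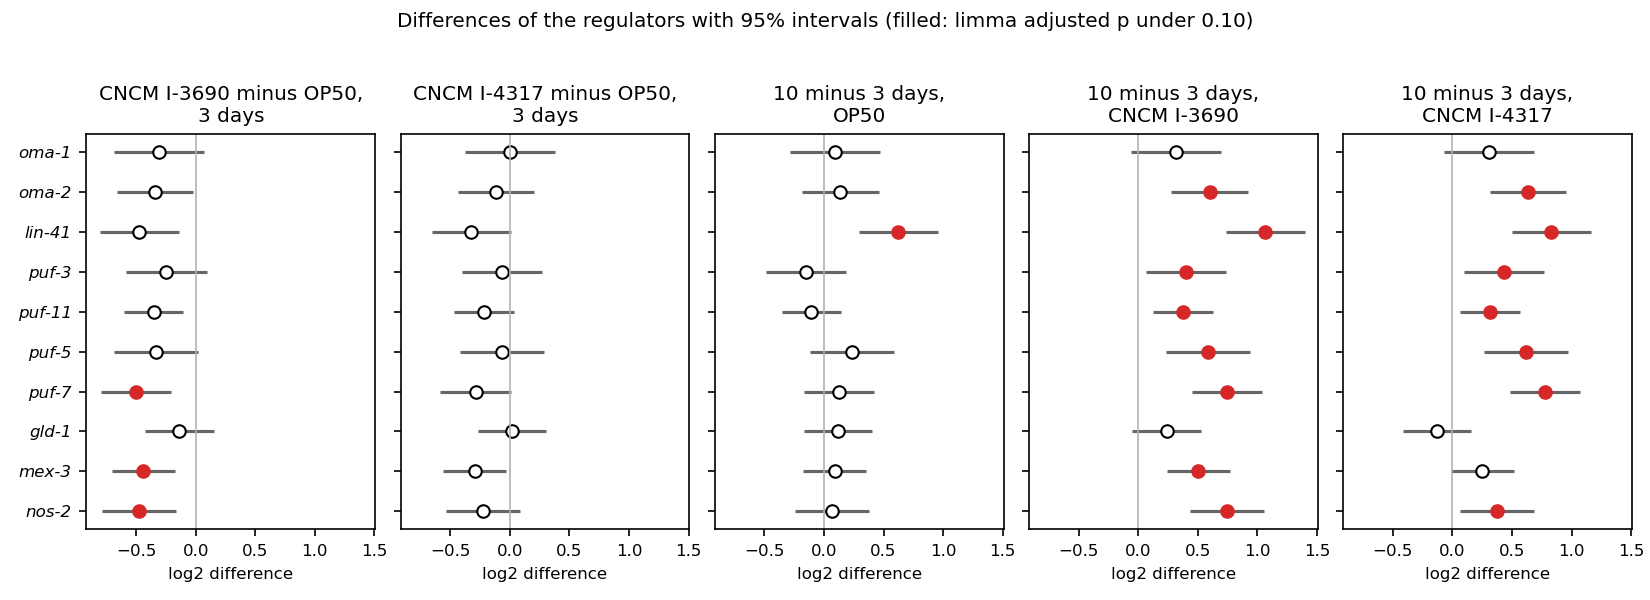
Log2 difference of each gene with its 95% interval in 5 comparisons, filled red where the limma adjusted p was under 0.10. The 3 red points in the first panel are *puf-7*, *mex-3* and *nos-2*. Red points number 1, 8 and 7 in the panels of 10 against 3 days.

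The second question was how the regulators changed between 3 and 10 days of feeding. On OP50 only *lin-41* was called, on CNCM I-3690 all but *oma-1* and *gld-1* rose, and on CNCM I-4317 all but *oma-1*, *gld-1* and *mex-3* rose. Of all probe sets, 5.41% rose on OP50, 17.3% on CNCM I-3690, and 15.4% did so on CNCM I-4317. Among the probe sets with a mean above 5 these shares were 9.7%, 41% and 33.4%, so that rises were common among genes at this level. The medians of the 10 genes were 0.11 on OP50, 0.54 on CNCM I-3690 and, with CNCM I-4317, 0.40, and those of the probe sets above 5 were 0.08, 0.24 and 0.19. After cyclic loess the medians of the 10 genes were 0.034, 0.32 and 0.23, all smaller than as deposited. Without replicate 1 of OP50 at 10 days, the array that stood apart, *lin-41* was again the 1 call on OP50 and the median was 0.12. No arrays are shared between these 3 comparisons, but the comparisons of young worms use the same arrays of 3 days.

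*lin-41* had the widest change. In worms of 10 days it was at 6.54, 6.62 and 6.24 on OP50, at 6.18, 6.44 and 6.69 on CNCM I-3690 and at 6.28, 6.37 and 6.41 on CNCM I-4317. All 9 of these values were above all 9 values of young worms. It rose by 0.62 on OP50 (1.54-fold, 95% interval 0.29 to 0.95, limma adjusted p = 0.0211), by 1.06 on CNCM I-3690 (2.09-fold, 95% interval 0.73 to 1.40, limma adjusted p = 0.000129) and by 0.83 on CNCM I-4317 (1.78-fold, 95% interval 0.50 to 1.16, limma adjusted p = 0.00121). These 3 rises passed in every alternative fit that measured this probe set at the same threshold. The other probe set of *lin-41* read 0.87 to 1.47, around the array medians, and was not called in any of the 12 comparisons.

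*oma-2*, one of the paired zinc finger proteins that promote oocyte maturation, was at 8.41, 8.22 and 8.19 in young worms on OP50 and at 8.26, 8.47 and 8.496 after 10 days, groups that overlapped (log2 difference 0.14, limma adjusted p = 0.711). On CNCM I-3690 it went from 7.90, 7.89 and 8.004 to 8.14, 8.68 and 8.77, with replicate 1 lowest of the older arrays. On CNCM I-4317 it went from 7.93, 8.29 and 8.24 to 8.88, 8.89 and 8.59. The rises were 0.60 (95% interval 0.28 to 0.92, limma adjusted p = 0.00786) and 0.63 (95% interval 0.31 to 0.95, limma adjusted p = 0.00670), without overlap on either strain. The second probe set of *oma-2*, which has no suffix letter, was called on CNCM I-3690 (0.52, limma adjusted p = 0.00873) and not on CNCM I-4317 (0.21, limma adjusted p = 0.320).

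*oma-1*, its partner, was not called. Its values lay between 6.75 and 7.49 in young worms and between 6.85 and 7.63 in worms of 10 days, and the differences were 0.09 on OP50 (95% interval -0.28 to 0.47), 0.31 on CNCM I-3690 (95% interval -0.06 to 0.69) and 0.31 on CNCM I-4317 (95% interval -0.07 to 0.69). On CNCM I-4317 its groups did not overlap, and on OP50 and CNCM I-3690 they did. The intervals of *oma-1* and *oma-2* overlapped on each diet, and the difference between the genes was not tested.

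The 4 PUF genes passed the test on both strains and not on OP50. *puf-7* was at 8.54, 8.40 and 8.44 after 10 days on OP50, against 8.35, 8.32 and 8.33 in young worms, a small step without overlap that did not pass (0.13, limma adjusted p = 0.707). After 10 days it was at 8.45, 8.60 and 8.69 on CNCM I-3690 and at 8.71, 9.11 and 8.65 on CNCM I-4317. From the values of young worms given above, it rose by 0.75 on CNCM I-3690 (1.68-fold, 95% interval 0.45 to 1.04, limma adjusted p = 0.000886) and by 0.78 on CNCM I-4317 (1.72-fold, 95% interval 0.49 to 1.07, limma adjusted p = 0.000764). The probe set shared with *puf-6* rose by 0.58 on CNCM I-3690 (limma adjusted p = 0.0244). On CNCM I-4317 that probe set was not called, and its arrays overlapped (0.33, limma adjusted p = 0.239). The one shared with *puf-6* and *puf-10* rose on both strains, by 0.52 (limma adjusted p = 0.0182) and 0.51 (limma adjusted p = 0.0248).

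*puf-5*, which acts with *puf-6* and *puf-7* in oocyte formation, ranged from 7.86 to 8.59 on OP50 at 3 days, the widest spread of the 10 genes in that group, and from 8.33 to 8.63 at 10 days (0.24, limma adjusted p = 0.503). It rose by 0.58 on CNCM I-3690 (95% interval 0.23 to 0.93, limma adjusted p = 0.0166) and by 0.62 on CNCM I-4317 (95% interval 0.27 to 0.97, limma adjusted p = 0.0143), without overlap on either. *puf-3* and *puf-11* encode a closely related pair of PUF proteins that are deposited in the embryo. *puf-3* rose by 0.40 on CNCM I-3690 (limma adjusted p = 0.0807) and 0.43 on CNCM I-4317 (limma adjusted p = 0.0687), and *puf-11* by 0.38 (limma adjusted p = 0.0272) and 0.32 (limma adjusted p = 0.0701). Both had negative differences on OP50, -0.15 for *puf-3* and -0.11 for *puf-11*, with limma adjusted p of 0.688 and 0.714. The calls of *puf-3* ended in 7 alternatives on CNCM I-3690 and in 6 with CNCM I-4317, with adjusted p up to 0.578 and 0.319, and those of *puf-11* in 2 and 6, with adjusted p up to 0.424 and 0.345.

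*nos-2* was at 6.996, 7.15 and 7.13 after 10 days on CNCM I-3690, all above the 3 young arrays, and rose by 0.75 (1.68-fold, 95% interval 0.44 to 1.06, limma adjusted p = 0.00134). On CNCM I-4317 it went from 6.60, 6.41 and 6.76 to 7.02, 7.06 and 6.81, a rise of 0.37 (limma adjusted p = 0.0898) that ended in 11 alternatives, with adjusted p up to 0.409. On OP50 it was at 6.77, 6.91 and 6.96 and overlapped with the young worms (0.06, 95% interval -0.25 to 0.38). *mex-3* was at 8.40, 8.40 and 8.13 after 10 days on CNCM I-3690 and rose by 0.51 (95% interval 0.24 to 0.77, limma adjusted p = 0.00690). Its second probe set was called as well (0.58, limma adjusted p = 0.0412). On CNCM I-4317 *mex-3* did not pass (0.25, 95% interval -0.01 to 0.52, limma adjusted p = 0.186), and on OP50 the difference was 0.09 (limma adjusted p = 0.776).

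*gld-1*, a KH domain protein of meiotic germ cells that lie upstream of the growing oocytes, had the narrowest range of group means and was not called in any comparison by this probe set. Its values were 7.76, 7.97 and 7.94 on OP50, 7.79, 7.60 and 7.87 on CNCM I-3690 and 7.76, 7.79 and 8.18 on CNCM I-4317 in young worms. After 10 days they were 7.99, 7.99 and 8.05, 8.20, 7.92 and 7.86, and 7.71, 8.02 and 7.62 in the same order of diets. The groups overlapped in all of these comparisons except on OP50, where the arrays of 10 days were just above those of 3 days. The differences were 0.12 on OP50 (95% interval -0.17 to 0.40), 0.24 on CNCM I-3690 (95% interval -0.05 to 0.53) and -0.13 on CNCM I-4317 (95% interval -0.42 to 0.16). A second probe set of *gld-1* read 1.22 to 2.19, close to the floor, and was called on CNCM I-4317 only (0.40, limma adjusted p = 0.0964).

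Whether the change with time differed between diets was tested directly. For CNCM I-3690 against OP50 it was larger in all 10 genes, by a median of 0.45, and none was called (limma, 0 called, 6 with an unadjusted p under 0.05, adjusted p from 0.176, and 0.809% of all probe sets called). The widest differences were those of *nos-2*, 0.68 (95% interval 0.24 to 1.12), and *puf-7*, 0.62 (95% interval 0.20 to 1.04). For CNCM I-4317 against OP50 it was larger in 9 of 10 genes, by a median of 0.34 (limma, 0 called, 4 with an unadjusted p under 0.05, adjusted p from 0.297, and 0.23% of all probe sets called), led by *puf-7* at 0.65 (95% interval 0.24 to 1.07). Between the strains the median was 0.03 (limma, 0 called, 0 with an unadjusted p under 0.05, adjusted p from 0.933, and 0% of all probe sets called), with intervals from -0.53 to 0.82 over the 10 genes. The rises called on the strains and not on OP50 were therefore not shown to differ between diets, and these 3 contrasts share arrays. Without replicate 1 of OP50 at 10 days, 0 genes were called against OP50 and the medians were 0.41 for CNCM I-3690 and 0.28 for CNCM I-4317. With all arrays, 2974, 2185 and 1228 of the 22625 probe sets had an unadjusted limma p under 0.05 in the 3 contrasts. Over the probe sets with a mean above 5 the medians were 0.15, 0.10 and 0.03.

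In worms of 10 days no diet comparison gave a call. On CNCM I-3690 against OP50 the 10 differences ran from -0.09 to 0.31 with a median of 0.07 (limma, 0 called, 0 with an unadjusted p under 0.05, and 0.539% of all probe sets called). On CNCM I-4317 against OP50 they ran from -0.23 to 0.52 with a median of 0.21 (limma, 0 called, 3 with an unadjusted p under 0.05, and 0.937% of all probe sets called). The 4 genes whose arrays on CNCM I-4317 were all above those on OP50 were *puf-3* (0.52, 95% interval 0.18 to 0.86, limma adjusted p = 0.210), *oma-2* (0.38, 95% interval 0.06 to 0.70), *puf-7* (0.36, 95% interval 0.07 to 0.66) and *puf-5* (0.31, 95% interval -0.04 to 0.67), and 7.81% of all probe sets lay so. For the probe sets with a mean above 5 this share was not computed. *puf-3* reached 8.51, 7.83 and 8.09 on CNCM I-4317, against 7.42, 7.63 and 7.82 on OP50, so that the highest array on OP50 was just under the lowest on CNCM I-4317. Without replicate 2 of CNCM I-4317 at 10 days, 1 gene was called higher. Without replicate 1 of OP50 at 10 days the medians were 0.024 on CNCM I-3690 and, for CNCM I-4317, 0.11. Between the strains the median was -0.15 (limma, 0 called, 0 with an unadjusted p under 0.05, and 0.0177% of all probe sets called). On CNCM I-4317 against OP50 at 10 days, 2426 of all 22625 probe sets had an unadjusted limma p under 0.05.

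The 10 genes moved together across groups and less so within them. The correlation of 2 of them over the 18 arrays was between -0.34 and 0.92, with a median of 0.60 over 45 pairs. After each group's mean was taken from its arrays, the median was 0.17, with a range of -0.58 to 0.78. *oma-2* and *puf-7* followed the mean of the other 9 most closely (r of 0.92 and 0.91 over 18 arrays) and *gld-1* least (0.21). The arrays share the 6 groups, so these values describe the pattern and were not tested. Within CNCM I-4317 at 3 days, replicate 1 was below the group mean in 9 of 10 genes and replicate 3 above it in 8. Within CNCM I-3690 at 10 days, replicate 2 was above the group mean in 9 of 10.

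The genes around the regulators in the same germ line were grouped by role. Falls in young worms on CNCM I-3690 are read against 2.27% of all probe sets and 5.88% of those above 5 called lower. In young worms on CNCM I-3690 against OP50, none of 24 measured partners and upstream regulators of germ line RNA passed limma's test (median -0.25). Of 12 RNA-binding and germ plasm regulators of the early embryo 4 fell (median -0.43). These were *pos-1*, a zinc finger protein of embryonic cell fate (-0.46, limma adjusted p = 0.0521), *meg-4* and *meg-1*, components of germ granules (-0.81, limma adjusted p = 0.0570, and -0.47, limma adjusted p = 0.0973), and *spn-4*, an RNA-binding protein of the early embryo (-0.46, limma adjusted p = 0.0576). A second probe set of *pos-1* was not called (-0.33, limma adjusted p = 0.191). Of 20 mRNAs described as targets of the regulators 2 fell, *trcs-1* (-0.54, limma adjusted p = 0.0311) and *spn-4*, and all 20 differences were below 0 (median -0.28). Of 6 other PUF genes none passed (median -0.02).

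Of 12 eggshell and oocyte surface genes 5 fell in the same comparison (median -0.41), among them the eggshell proteoglycan *cpg-2* (-0.47, limma adjusted p = 0.0268), the sperm-binding oocyte protein *egg-2* (-0.44, limma adjusted p = 0.0394), *cpg-1* (-0.47, limma adjusted p = 0.0715) and the chitin-binding *cbd-1* (-0.38, limma adjusted p = 0.0828). A second probe set of *cpg-2* was not called (-0.43, limma adjusted p = 0.120). Of 21 germ granule and germ cell markers 2 fell, *deps-1* and *cey-2* (-0.34 and -0.39, median of the list -0.17), and of 18 proliferation genes 2 fell, *mcm-7* and *mcm-2* of the replicative helicase (-0.49 and -0.35, median -0.32). The counts of the targets, germ cell markers and proliferation genes were not far above the 5.88% of the probe sets above 5. The median over the 10 regulators, -0.35, lay among those of the partners, early embryo regulators, targets, eggshell genes, germ cell markers and proliferation genes, -0.43 to -0.17, and the other PUF genes, at -0.02, lay outside that range.

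**Figure D3:**
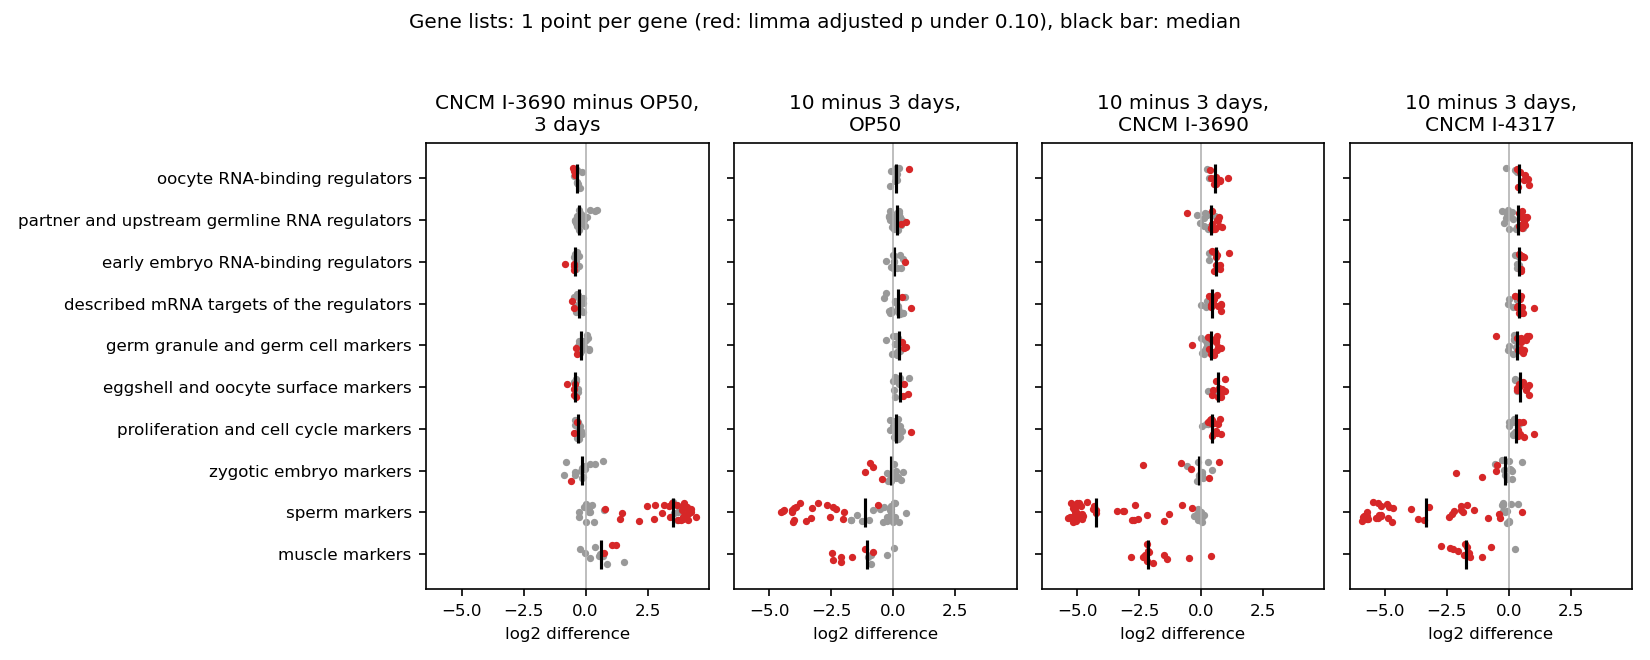
Log2 differences of the genes of 10 lists in 4 comparisons, 1 point per gene, red where the limma adjusted p was under 0.10, with the median of each list as a black bar. The regulators and the other oocyte and germ line lists lie within about 1 log2 unit of 0 and have medians on the same side of 0 in each panel, and the medians of the sperm and muscle lists lie on the opposite side, with a wider range of points.

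Between 3 and 10 days the counts of called genes were read against the background already given: 17.3% of all probe sets and 41% of those above 5 rose on CNCM I-3690, while 15.4% and 33.4% did so on CNCM I-4317, and 5.41% and 9.7% on OP50. The counts of the partners on both strains, and of the proliferation genes on CNCM I-4317, lay near the shares of the probe sets above 5. Those of the other PUF genes on both strains lay near or below them. On OP50 the counts of risen genes in all germ line and oocyte lists except the eggshell genes did so too. On CNCM I-3690, 12 of 24 partners rose and 1 fell (median 0.40), led by *daz-1*, *puf-8*, *cpb-1* and *nos-1* (0.74, 0.67, 0.84 and 0.70), and the one that fell was *cpb-2* (-0.58, limma adjusted p = 0.0104), which was named after its value was seen. Of the early embryo regulators 10 of 12 rose (median 0.58), with *pos-1* at 0.77, *meg-4* at 1.14, *mex-6* at 0.74 and *pie-1* at 0.62, and of the described targets 16 of 20 rose (median 0.44), with *trcs-1* at 0.80, the yolk receptor *rme-2* at 0.68, the cyclin *cye-1* at 0.79 and the kinase *mpk-1* at 0.45. Of the eggshell genes 10 of 12 rose (median 0.70), of the germ cell markers 13 of 21 rose and 1 fell (median 0.39), and of the proliferation genes 14 of 18 rose (median 0.44). The germ cell marker that fell was the helicase gene *glh-1* of germ granules (-0.35, limma adjusted p = 0.0305), also named after its value was seen. Of the 6 other PUF genes 1 rose, *puf-8*.

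On CNCM I-4317 the partners counted 11 risen of 24 (median 0.36), led by *puf-8*, *rnp-8*, *fbf-1* and *etr-1* (0.73, 0.61, 0.52 and 0.67). The early embryo regulators counted 7 of 12 (median 0.42), the targets 14 of 20 (median 0.39), the eggshell genes 9 of 12 (median 0.44), the germ cell markers 11 of 21 with *glh-1* again lower (-0.53, median of the list 0.34) and the proliferation genes 8 of 18 (median 0.30). Of the other PUF genes, *puf-8* and *fbf-1* rose.

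On OP50 the genes that rose were 2 of 24 partners (*lag-1* at 0.49 and *fbf-1* at 0.29), 1 of 12 early embryo regulators (*mbk-2* at 0.47), 2 of 20 targets (*cye-1* at 0.72 and *mpk-1* at 0.33), 3 of 12 eggshell genes (*cpg-2*, *perm-4* and *egg-2* at 0.44, 0.58 and 0.38), 3 of 21 germ cell markers (*him-3*, *syp-1* and *htp-3*), 1 of 18 proliferation genes (*cye-1*) and 1 of 6 other PUF genes (*fbf-1*). The second probe set of *cpg-2* was not called here (0.16, limma adjusted p = 0.624). Without replicate 1 of OP50 at 10 days, which was left out after seeing the data, the eggshell genes counted 5, the germ cell markers 6 and the proliferation genes 4, with medians of 0.35, 0.28 and 0.27, and 6.36% of all probe sets rose. In that fit 1 partner and 2 targets rose, 1 target fell, and 0 early embryo regulators and 0 other PUF genes passed limma's test. How the changes of the lists differed between diets was not tested for a list as a whole. Some genes stand in 2 of these lists. After 10 days on CNCM I-4317 against OP50, *fbf-1*, which represses *gld-1* mRNA in germ line stem cells, was higher (0.50, limma adjusted p = 0.0355), as was *zif-1*, whose mRNA the OMA proteins repress (0.66, limma adjusted p = 0.0812). *gld-1* itself was at -0.23 in that comparison and not called, and no other gene of the germ line and oocyte lists passed there.

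Markers of sperm, muscle and hypodermis had medians opposite in sign to the regulators in some comparisons. These were each strain against OP50 in young worms, and 10 against 3 days on each diet. Those of intestine, neurons and zygotic transcription were not opposite in all of these. At 10 days, on CNCM I-3690 and CNCM I-4317 against OP50, the sperm medians were 0.96 and 0.54 and the muscle medians 0.21 and -0.03. Those of hypodermis were -0.09 and -0.31, and those of the regulators 0.07 and 0.21. The part of none of these markers in the values of the regulators was tested. In young worms, 31 of 48 measured sperm genes were higher on CNCM I-3690 than on OP50 (median 3.51, where 3.85% of all probe sets were higher), with *ssp-10*, *nspd-1*, *nspd-4* and *nspd-7* first by adjusted p, and 2 of 48 on CNCM I-4317 (median 2.67). On the linear scale their summed level was 813 to 2244 on OP50, 9354 to 19134 on CNCM I-3690 and 3978 to 15907 on CNCM I-4317, and 7 of the 48 were below the array median on every array. After 10 days it was 177 to 240 on OP50, 204 to 1695 on CNCM I-3690 and 222 to 1251 on CNCM I-4317. Between 3 and 10 days 21 sperm genes fell on OP50 (median -1.12), 37 on CNCM I-3690 (median -4.25), and 36 on CNCM I-4317 where 1 rose (median -3.33). Of all 22625 probe sets, 1214, 2841 and 2271 fell in the same 3 comparisons. The arrays of CNCM I-4317 at 3 days were ordered oppositely in the 2 lists: replicate 1 had the highest sperm mean (5.92) and the lowest mean of the regulators, and replicate 3 had the lowest sperm mean (4.34) and the highest mean of the regulators. Replicate 2 lay between them in both, with a sperm mean of 5.39, above the lowest array of CNCM I-3690 (5.20), and a mean of the regulators of 7.54, near the arrays of OP50 (7.59 to 7.72). Not every group showed this opposite order. Replicate 1 was highest in both lists in OP50 at 3 days (3.76 and 7.72) and in CNCM I-4317 at 10 days (3.31 and 7.98).

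Of 12 muscle genes, 3 were higher on CNCM I-3690 in young worms (*tni-3*, *myo-3* and *myo-2*, median of the list 0.63), and between 3 and 10 days 7 fell on OP50 (median -1.08), 11 fell and 1 rose on CNCM I-3690 (median -2.12) and 11 fell on CNCM I-4317 (median -1.72). Their summed level was 2090 to 2172 on OP50, 2421 to 2617 on CNCM I-3690 and 2141 to 2245 on CNCM I-4317 in young worms, and 782 to 1580, 1084 to 1548 and 970 to 1069 after 10 days. Of 11 hypodermis and cuticle genes 4, 8 and 7 fell with time on OP50, CNCM I-3690 and CNCM I-4317 (medians -0.47, -1.33 and -1.25). Without replicate 1 of OP50 at 10 days the falls on OP50 were 11 of 12 muscle genes (median -1.83) and 5 of 11 hypodermis genes (median -0.89), where 5.99% of all probe sets fell, and 16 of 48 sperm genes (median -1.05). Of 13 intestine genes 7, 6 and 7 fell while 1, 4 and 3 rose, and of 15 neuron genes 0, 4 and 2 fell while 1 rose on each diet. Over all 22625 probe sets the falls were 1214, 2841 and 2271, and the neuron falls on CNCM I-4317 lay near that share. Of 15 markers of zygotic transcription, *end-1* was lower on CNCM I-3690 in young worms (-0.61, limma adjusted p = 0.0558), where 2.27% of all probe sets were lower. With time 4, 3 and 4 of these markers fell while 0, 2 and 0 rose.

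**Figure D4:**
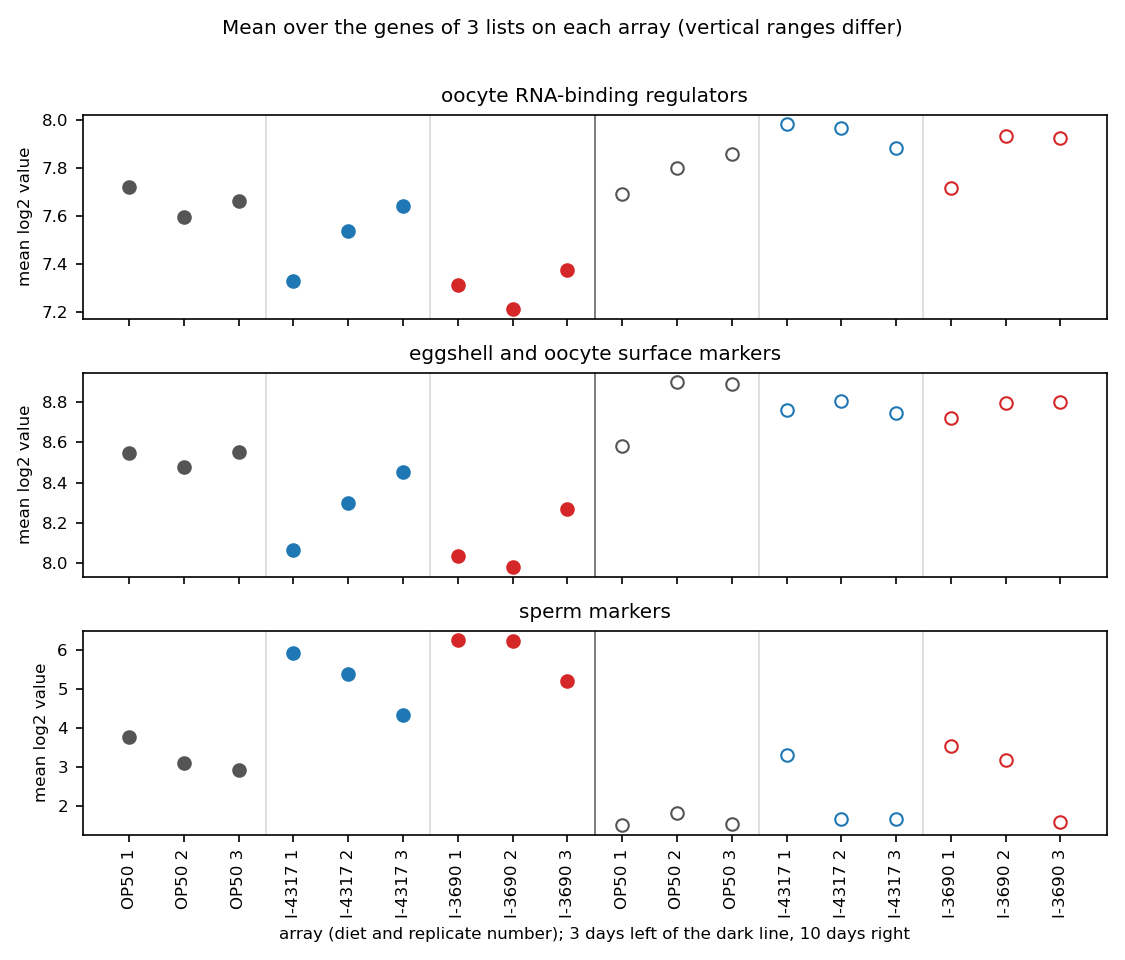
Mean log2 value per array over the 10 regulators, 12 eggshell and oocyte surface genes and 48 sperm genes, with young worms left of the dark line and worms of 10 days right of it. The vertical ranges differ between panels. The lowest means of the regulators are those of the 3 arrays of CNCM I-3690 and of replicate 1 of CNCM I-4317 at 3 days, and the sperm means of these 4 arrays are 5.20 to 6.26. Replicate 2 of CNCM I-4317 at 3 days has a sperm mean of 5.39, within that range, and a mean of the regulators of 7.54, above those 4.

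By likeness over the 18 arrays, the genes outside the list that were closest to the mean profile of the 10 regulators were *pri-2*, a subunit of DNA primase (r = 0.967), *mei-2*, a subunit of the meiotic spindle katanin (0.962), *pos-1* (0.958, by the second probe set given above), *samp-1* (0.955), *wdr-5.3* (0.954), *clec-87* (0.952), *cpg-2* (0.950, likewise by the second probe set) and *cpg-1* (0.949). In young worms these 8 genes had log2 differences of -0.47 to -0.33 on CNCM I-3690 against OP50. The 4 genes farthest from the profile were *ras-2* (-0.964), *glc-2* (-0.957), *ncx-1* (-0.956) and *F15G9.1* (-0.953), with differences of 0.59 to 1.28 in the same comparison. These are the ends of a ranking of all probe sets with 1 symbol, and the values are a description.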

How the data were processed

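The authors hybridized RNA of whole worms to Affymetrix *C. elegans* arrays, corrected the background by RMA and quantile normalized the arrays. The deposited table holds the resulting log2 value of each probe set on each array, and nothing further was done to it before the tests. No version of RMA or array annotation is given in the sources used here. The Methods state 4 replicates per condition, and the labels give 3.

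Probe sets were named from GEO's platform annotation, in which 20766 carry 1 symbol, 887 several and 972 none. In R 4.3.3 with limma 3.58.1, a model with 6 group means was fitted to the 18 arrays (lmFit, eBayes at its defaults, 12 residual and 4.09 prior degrees of freedom). The 12 contrasts were 6 between diets at 1 time, 3 between 10 and 3 days on 1 diet, and 3 between those changes. In each, p-values were adjusted over all 22625 probe sets with the Benjamini-Hochberg procedure, with a threshold of 0.10 because the study's own lists reach that value, where its text states 0.01. Simulated data with known changes were used to check the code.

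The 10 genes and the other 13 gene lists were chosen with earlier results of these data known, so no count of them is independent evidence. Named were all 10 genes, up to 4 called genes of each other list and comparison by adjusted p, and the 8 genes most like and 4 least like the mean profile by Pearson's r. Alternatives were thresholds of 0.05 and 0.01, fits to the arrays of 1 time or diet, a replicate block, a filter at percentile 40 of the mean, median centring, cyclic loess, trended robust eBayes, the mean of a gene's probe sets, probe sets without suffix letter, no control probe sets, and each array left out. No protein or nucleotide sequence was used here.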

Additional observations from a re-analysis of the deposited data

How the results depend on the processing

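The counts of called genes were the least stable values. For CNCM I-3690 against OP50 at 3 days, 3 lower genes became 0 at adjusted p under 0.05 and 0.01, in a fit to the arrays of 3 days, after cyclic loess, and with probe sets without suffix letter (3 genes measured), and 0 to 5 with 1 array left out. For 10 against 3 days, the 1 call on OP50 became 0 at 0.01 and without suffix letters. The 8 on CNCM I-3690 became 5 at 0.01, 5 after cyclic loess, where the median was 0.32, and 2 without suffix letters. The 7 on CNCM I-4317 became 4 at 0.05, 3 at 0.01, 4 in a fit to the arrays of that diet, 4 after cyclic loess and 1 without suffix letters, and 4 to 7 with 1 array left out (4 without replicate 1 of either time). At 10 days, CNCM I-4317 against OP50 gave 0 to 1 with 1 array left out, the 1 without replicate 2 of CNCM I-4317. The difference in change with time between CNCM I-3690 and OP50 gave 0 to 1, the 1 without the array of CNCM I-3690, replicate 3, from young worms. Of 999 recomputed counts and medians, 972 stayed within their limits and 27 moved. A stricter threshold can only lower a count. The fit without suffix letters measures only *oma-2*, *puf-11* and *gld-1*, so the calls of all other genes drop out of its counts, which are among the 27. Otherwise the cause was not tested.

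With replicate number as a block, 1 gene, *nos-2*, was called in the change with time of CNCM I-3690 against OP50, and no other count of calls moved by over 1.5 times. Same-numbered arrays did not pair throughout. Their deviations correlated by -0.32 to 0.47 between diets (7 of 18 pairs above 0.1) and -0.07 to 0.20 between times (4 of 9 pairs above 0.1). Arrays of other numbers had a median of -0.03 in both. Of 18 arrays, 7 and 10 were closest to their own number, and a pairing in part was not settled.

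Centring or loess moved the median of all probe sets by less than 0.1, but changed the balance of calls over the whole array. Of the calls at 3 days on CNCM I-3690 against OP50, 62.9% were higher as deposited, 52.7% after centring and 85.2% after loess. For 10 against 3 days the shares were 57.9%, 69.9% and 40.1% on CNCM I-3690, and 60.6%, 69.6% and 46.2% on CNCM I-4317.

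Of 3366 recomputed values of single genes, 3198 kept direction and side of the threshold, 78 lost and 16 gained a call, and 74 changed sign, none of them called before or after. These 74 belong to 28 differences. Only a difference called before could lose a call, and most were not called. Cyclic loess gave 0.025 for *gld-1* (CNCM I-3690 against OP50, 3 days), 0.015 for *puf-3* and 0.0059 for *puf-5* (CNCM I-4317 against OP50, 3 days), -0.014 for *nos-2* (10 against 3 days, OP50) and, for change with time, -0.044 for *gld-1* (CNCM I-3690 against OP50), -0.067 for *oma-1* and -0.022 for *puf-11* (between strains). Centring gave -0.038 for *oma-1* and -0.022 for *gld-1* (CNCM I-4317 against OP50, 3 days), and 0.0155 for *gld-1* and 0.0058 for *mex-3* (CNCM I-3690 against OP50, 10 days). The mean of a gene's probe sets gave, at 10 days, 0.034 for *gld-1* and 0.044 for *mex-3* (CNCM I-3690 against OP50), 0.0081 for *gld-1* and 0.058 for *mex-3* (CNCM I-4317 against OP50), -0.015 for *lin-41* and -0.014 for *mex-3* (between strains), 0.14 for *gld-1* (10 against 3 days, CNCM I-4317) and 0.14 for *oma-2* (change with time, between strains). Without suffix letters *oma-2* was at -0.029 (CNCM I-4317 against OP50, 10 days), 0.19 (between strains, 10 days) and, for change with time, -0.0055 (CNCM I-4317 against OP50) and 0.31 (between strains).

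With 1 array left out, the ranges that crossed 0 were, for CNCM I-4317 against OP50 at 3 days, -0.10 to 0.15 (*oma-1*), -0.15 to 0.00996 (*puf-3*), -0.26 to 0.11 (*puf-5*) and -0.11 to 0.094 (*gld-1*). For CNCM I-3690 against OP50 at 10 days they were -0.23 to 0.092 (*oma-1*), -0.0034 to 0.32 (*oma-2*), -0.0596 to 0.13 (*puf-5*), -0.16 to 0.097 (*lin-41*), -0.12 to 0.054 (*gld-1*) and -0.0705 to 0.0635 (*mex-3*), and between strains -0.043 to 0.21 (*lin-41*). For 10 against 3 days they were -0.041 to 0.24 (*oma-1*, OP50), -0.017 to 0.18 (*nos-2*, OP50) and -0.25 to 0.0055 (*gld-1*, CNCM I-4317). For change with time between strains they were -0.10 to 0.18 (*oma-1*), -0.16 to 0.16 (*oma-2*), -0.19 to 0.15 (*puf-3*), -0.17 to 0.10 (*puf-5*), -0.17 to 0.12 (*puf-7*) and -0.064 to 0.17 (*puf-11*).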
